A study of Mus musculus with 16 samples.

Results

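Liver sinusoidal endothelial genes are the genes by which the thin, fenestrated cells that line the hepatic capillaries are usually recognised. The 10 genes described here are Stab1, Stab2, Lyve1, Clec4g, Fcgr2b, Pecam1, Kdr, Cdh5, Bmp2 and Oit3, taken by name from the 41079 genes of the deposited counts table. All 10 were abundant enough to be tested, among 16742 tested genes.

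Whole livers of male and female C57BL/6J mice aged 20 to 22 months were profiled by poly-A RNA sequencing, with 4 mice in each of 4 groups. Every mouse carried the glucagon receptor gene Gcgr flanked by LoxP sites. LKO mice also carried Cre recombinase under the albumin promoter, which is active in hepatocytes, and CRE- mice did not. The endothelial cells were therefore not the cells in which Cre was driven. The question was whether the level of these genes differed between LKO and CRE- livers within each sex. Total counts ranged from 33268424 to 56488920 a library. Values are given as CPM, which scales counts to the TMM-adjusted library size, unless TPM, which also divides by gene length, is named.

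Sinusoidal endothelial cells clear waste molecules from portal blood through scavenger and lectin receptors, and pass plasma to hepatocytes through open pores. They also send signals to hepatocytes, among them BMP ligands that set the transcription of the iron hormone hepcidin. Stab1, Lyve1 and Fcgr2b are also expressed by some macrophages or B cells, and Pecam1 by platelets. In whole liver, fewer endothelial cells and less RNA in each cell cannot be told apart.

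Gcgr, the targeted gene, lies on chromosome 11 at 120420011 to 120429815 of GRCm39. Its level was 190, 193, 127 and 190 CPM in male CRE- replicates 1 to 4, and 117, 136, 130 and 160 CPM in male LKO. The male ranges overlapped because CRE- replicate 3 lay within the LKO range, and Gcgr was not called in males (log2 fold change -0.37 ± 0.24 SE, adjusted p = 0.671). In females Gcgr was 162, 208, 201 and 180 CPM in CRE- and 48.8, 132, 119 and 93.6 CPM in LKO. All 4 female LKO livers lay below all 4 CRE- livers, and Gcgr was lower by edgeR (log2 fold change -0.93 ± 0.25 SE, adjusted p = 0.0443). The call was lost when libraries were scaled by their totals alone (-0.67, adjusted p = 0.0852). It was also lost without female LKO replicate 1 or female CRE- replicate 2, 3 or 4, in fits that called fewer genes. The counts cover the whole gene, so reads from exons outside the floxed stretch are included. All 8 hepatocyte markers given below also had negative female log2 fold changes, with a median of -0.73. Their part in the Gcgr difference was not tested. The paper reports that, of the tissues it examined, Gcgr transcripts were reduced in the liver alone.

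Some libraries stood apart from their group. Over all tested genes, the median absolute log2 distance of a library from the other 3 of its group was 0.612 in female LKO replicate 1 and 0.573 in male CRE- replicate 3, against 0.406 in the next library, male CRE- replicate 4. Female LKO replicate 4 was not far from its group on this measure, at 0.364, but it differed in the endothelial genes described below. Results are therefore also given without female LKO replicate 1 and male CRE- replicate 3, a choice made after the data were seen.

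Per length, the members differed several-fold in level. The mean over 16 livers was 45.4 ± 14.5 TPM (SD, n = 16) for Clec4g, a C-type lectin of the sinusoid, and 31.1 ± 7.25 TPM for Fcgr2b, the inhibitory Fc receptor that takes up immune complexes. Cdh5, the adherens junction cadherin of endothelial cells, followed at 22.0 ± 9.65 TPM. Oit3 had a mean of 18.05 ± 4.32 TPM and Pecam1, an endothelial adhesion molecule, 15.7 ± 5.60 TPM. Stab1 stood at 14.3 ± 7.37 TPM, Kdr at 12.3 ± 2.82 TPM and Stab2 at 12.3 ± 6.42 TPM. Lyve1 had a mean of 10.1 ± 13.2 TPM and Bmp2 of 9.63 ± 3.19 TPM. Every neighbouring pair in this order overlapped in its range over the libraries. The order of neighbours within each liver was not tested. These means pool groups that differed. Lyve1 had group means of 5.02 TPM in male CRE-, 6.48 TPM in male LKO, 4.55 TPM in female CRE- and 24.4 TPM in female LKO, against 7.59, 11.7, 9.49 and 9.77 TPM for Bmp2, so Lyve1 exceeded Bmp2 in female LKO alone. Cdh5 had 17.7, 19.9, 15.6 and 34.7 TPM in the same order. Lyve1 varied most, with a highest value 19.2 times its lowest, and Kdr least, at 2.24 times.

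No member was called in males. The edgeR test across all genes called 76 genes in males, 0.454% of those tested, and 0 of the 10 members. At an unadjusted p under 0.05 there were 2 members, beside 9.53% of all tested genes. DESeq2 and limma-voom also called 0 members in males. The members' median log2 fold change was 0.33, beside -0.01 over all tested genes, and 8 of the 10 values were positive. Without CRE- replicate 1, the lowest of the 16 livers in 5 members, this median was 0.16, and without LKO replicate 1 it was 0.20. LKO and CRE- values overlapped for all 10 members, whereas they did not overlap for 6.49% of all tested genes.

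One member was called in females with TMM scaling. There edgeR called 710 genes, 4.24% of those tested, and 1 of the 10 members, Cdh5. Of all tested genes 2.09% were called higher in female LKO, the direction of Cdh5. Cdh5 was also the 1 member whose female groups did not overlap, a pattern shown by 11.6% of all tested genes. With 10 genes, 1 call cannot be told apart from this background. The members' median log2 fold change in females was 0.15, beside 0.04 over all tested genes, with 5 of 10 values positive. Its sign was not stable, at -0.068 without LKO replicate 1 and -0.15 with limma-voom.

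The female result depended on how libraries were scaled. In TPM, which carries no TMM factor, the female LKO mean was above the CRE- mean for 9 of 10 members, all but Clec4g. Fcgr2b had means of 31.3 TPM in female CRE- and 33.8 TPM in female LKO, Kdr 11.1 and 13.1 TPM, Bmp2 9.49 and 9.77 TPM, and Oit3 17.2 and 21.1 TPM. In males the LKO mean was above for 8 of 10. A fit with edgeR on library totals alone was added after this was seen. It called 4 members in females, Stab2 (log2 fold change 0.94, adjusted p = 0.0376), Lyve1 (2.28, adjusted p = 0.0371), Pecam1 (0.68, adjusted p = 0.0452) and Cdh5 (1.06, adjusted p = 0.0161), all higher in LKO. That fit called 7.24% of all tested genes, and 6.05% as higher. The members' median was 0.435, with 8 of 10 positive, but the median over all tested genes was also raised, to 0.305. It called 0 members in males, in the sex difference and between the control groups. Cdh5 was called under both scalings.

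**Figure D1:**
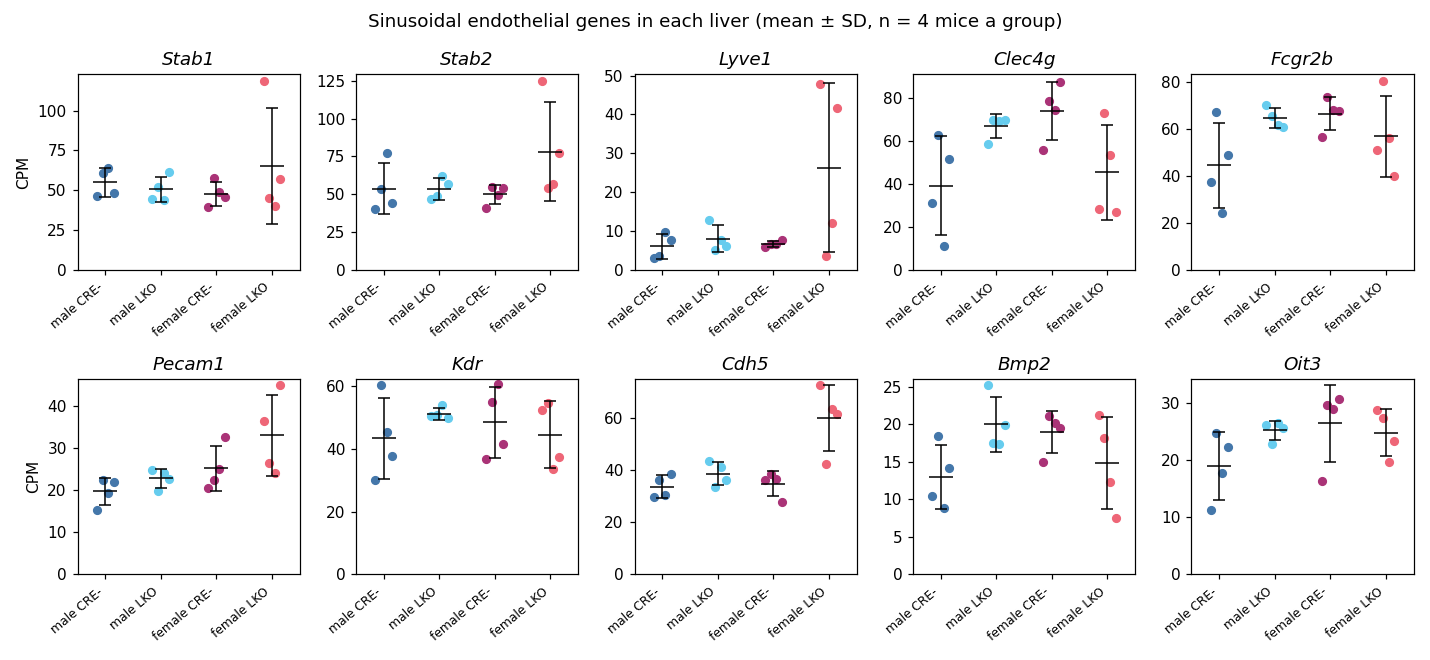
CPM of each of the 10 genes (y axis, starting at 0) in the 4 groups (x axis), with a point for each liver and bars for the mean ± SD of 4 mice. Cdh5 is the 1 gene whose female LKO points all lie above the female CRE- points, and the female LKO points of Lyve1 and Clec4g are widely spread.

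Cdh5 encodes VE-cadherin, which holds endothelial cells together, and lies on chromosome 8 at 104828247 to 104871136 of GRCm39. Its level was 36.4, 38.5, 36.8 and 27.7 CPM in female CRE- replicates 1 to 4, and 72.9, 42.5, 63.7 and 61.8 CPM in female LKO. The 4 LKO livers were all above the CRE- livers, with replicate 2 nearest to them. The log2 fold change was 0.79 ± 0.17 (SE), with an adjusted p of 0.0249 by edgeR. Male livers held 29.6, 36.3, 30.4 and 38.6 CPM in CRE- and 43.5, 33.7, 41.4 and 36.4 CPM in LKO. The male groups overlapped (log2 fold change 0.20 ± 0.17 SE, adjusted p = 0.749), and without male LKO replicate 1 the value was 0.13. The difference between the sexes in the LKO effect was 0.59 ± 0.25 (SE) and was not called (adjusted p = 0.271), so an effect particular to females was not shown.

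The Cdh5 call held in 9 of 11 other fits, among them DESeq2 (adjusted p = 0.000717), limma-voom (log2 fold change 0.64) and the replicate block (adjusted p = 0.0232), with adjusted p from 0.000717 to 0.15 over the 11. Leaving out 1 female mouse at a time kept the log2 fold change between 0.71 and 0.92, but the call was lost without CRE- replicate 2, 3 or 4 or without LKO replicate 1, with adjusted p up to 0.0745. Those fits also called fewer genes, 87, 122, 110 and 237 in place of 710. With the 2 libraries farthest from their group left out it was 0.71 (adjusted p = 0.0471). With female LKO replicate 4, picked from its endothelial genes, left out as well it was 0.63 (adjusted p = 0.15). Fitted on the female libraries alone, it was 0.80 (adjusted p = 0.0766).

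Among the scavenger receptors, Lyve1, a hyaluronan receptor, had the largest female log2 fold change of the members, but it was not called by edgeR with TMM scaling. Lyve1 was 5.77, 6.56, 6.66 and 7.70 CPM in female CRE- replicates 1 to 4, and 47.9, 3.54, 12.1 and 41.7 CPM in female LKO. Replicates 1 and 4 of LKO were high, whereas replicate 2 was below every female CRE- liver. The log2 fold change was 1.98 ± 0.59 (SE), with an adjusted p of 0.0649. DESeq2 called Lyve1 (adjusted p = 0.00763), as did edgeR without LKO replicate 2 (adjusted p = 0.0129). These 2 fits called more genes in all, 1809 of 16742 tested and 1310 of 17105 tested. Without female LKO replicate 1 and male CRE- replicate 3 the log2 fold change was 1.54, and with female LKO replicate 4 left out too it was 0.27 (adjusted p = 0.854). The size of the Lyve1 difference thus rested on LKO replicates 1 and 4. Replicate 4 was picked from its endothelial genes, so the last fit is a description and no independent test. In males Lyve1 was 3.02, 3.68, 9.83 and 7.62 CPM in CRE- and 12.9, 5.18, 7.75 and 6.21 CPM in LKO, with overlapping groups.

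Stab2, a clearance receptor for hyaluronan, was 41.2, 55.0, 49.3 and 53.9 CPM in female CRE- and 125, 54.1, 56.5 and 77.3 CPM in female LKO. Replicate 1 was far above the rest (log2 fold change 0.65 ± 0.25 SE, adjusted p = 0.147), and without it the log2 fold change was 0.35. Stab1, its relative, was 39.5, 57.6, 48.6 and 45.7 CPM in female CRE- and 118, 45.0, 39.9 and 57.3 CPM in female LKO. Replicate 1 again held the high value, and the log2 fold change of 0.45 fell to 0.01 without female LKO replicate 1 and male CRE- replicate 3. In males the log2 fold change was -0.12 for Stab1 and -0.00389 for Stab2.

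Clec4g showed the reverse arrangement of libraries. It was 55.5, 78.4, 74.3 and 87.2 CPM in female CRE- and 28.3, 72.9, 53.3 and 26.7 CPM in female LKO. LKO replicates 1 and 4, the livers with high Lyve1, were the low ones. The log2 fold change was -0.70 ± 0.40 (SE) and was not called (adjusted p = 0.332). With library totals alone it was -0.43. Without the 2 farthest libraries and female LKO replicate 4, picked from its endothelial genes, it was -0.21. In males Clec4g was 31.2, 62.9, 10.9 and 51.5 CPM in CRE- and 58.5, 69.6, 69.0 and 69.9 CPM in LKO. Male CRE- replicate 3 was the lowest of all 16 livers, and the male log2 fold change of 0.77 ± 0.40 (SE, adjusted p = 0.568) was 0.45 without it and female LKO replicate 1.

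Fcgr2b was 37.5, 66.9, 24.3 and 48.7 CPM in male CRE- and 69.9, 65.3, 61.5 and 60.8 CPM in male LKO. Male CRE- replicate 3 was again lowest, and replicate 2 reached the LKO range (log2 fold change 0.54 ± 0.25 SE, adjusted p = 0.523). Without CRE- replicate 3 it was 0.32, and without CRE- replicate 2 it was 0.81. In females the log2 fold change of Fcgr2b was -0.23 (adjusted p = 0.662), with extremes of -0.44 without LKO replicate 2 and -0.09 without LKO replicate 4.

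Of the signalling genes, Bmp2, a ligand that acts on hepatocytes, was 10.4, 18.4, 8.89 and 14.2 CPM in male CRE- and 25.2, 17.5, 17.4 and 20.0 CPM in male LKO. The ranges met at CRE- replicate 2, and the log2 fold change of 0.62 ± 0.28 (SE) was not called (adjusted p = 0.503). In females it was -0.36 (adjusted p = 0.516), with LKO replicate 4 the lowest liver at 7.52 CPM. It was -0.14 without LKO replicate 4 and -0.56 without LKO replicate 1. Kdr, the main VEGF receptor, had log2 fold changes of 0.24 in males and -0.12 in females. Pecam1 had 0.21 and 0.39, and Oit3, a secreted protein, 0.41 and -0.09. On the TMM scale edgeR called none of these. Without male CRE- replicate 1 the male values were 0.098 for Kdr, 0.097 for Pecam1 and 0.22 for Oit3, and without male CRE- replicate 2 that of Kdr was 0.45. In females Pecam1 was 0.20 without LKO replicate 4. Those of Kdr and Oit3 were near 0 and turned sign in single fits, Kdr to 0.00399 without CRE- replicate 3 and Oit3 to 0.00598 without CRE- replicate 4 and 0.00234 without LKO replicate 3.

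**Figure D2:**
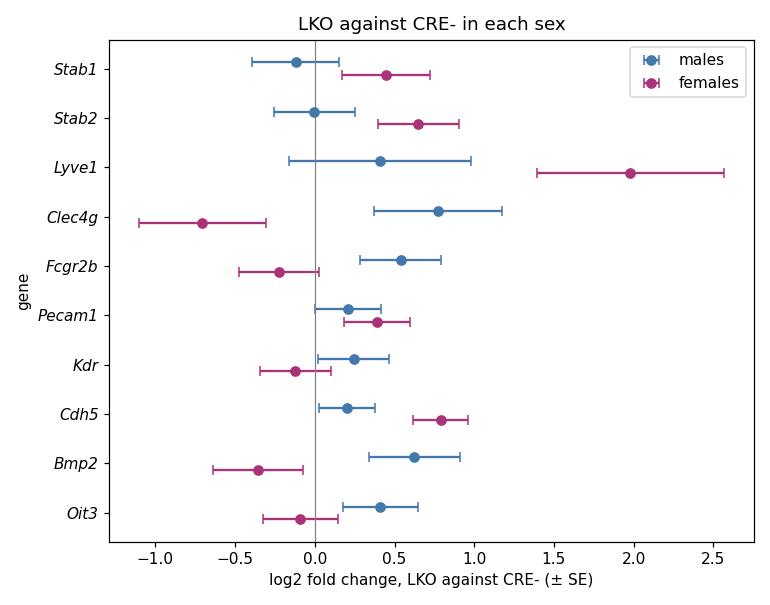
Log2 fold change of LKO against CRE- (x axis) for each of the 10 genes (y axis), with points for males and females and bars for ± 1 SE. Clec4g, Fcgr2b, Bmp2, Kdr and Oit3 have a positive value in males and a negative one in females on the TMM scale. By edgeR no sex difference was called.

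The difference between the sexes in the LKO effect was tested directly. By edgeR 0 of all tested genes were called for it, 0% of those tested, and 0 of 10 members. At an unadjusted p under 0.05 there were 4 members, beside 16% of all tested genes. DESeq2 called 371 genes and limma-voom 29, and both called 0 members. The largest member values were 1.57 for Lyve1 (adjusted p = 0.342) and -1.48 for Clec4g (adjusted p = 0.243), female minus male. Between the control groups, female against male CRE-, edgeR called 154 genes, 0.92% of those tested, and 0 members. At an unadjusted p under 0.05 there were 2 members, beside 12.7% of all tested genes. DESeq2 and limma-voom called 0 members there too. The members' median female minus male difference was 0.26, beside -0.01 over all tested genes.

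Relative to the mean of 22 pan-endothelial genes in the same liver, Stab2 was higher in female LKO by 0.70 on the log2 scale. Its exact two-sided permutation p was 0.0286, the smallest that 70 arrangements of 4 against 4 livers allow, and 0.286 after adjustment over the 20 values. Without female LKO replicate 1 the difference was 0.44. Cdh5 stood 0.90 higher on this scale (exact permutation p = 0.0571, adjusted p = 0.286). Lyve1 had the largest female difference, 1.49 (exact permutation p = 0.143, adjusted p = 0.3175). The Lyve1 difference was 0.99 without LKO replicate 1 and 2.27 without LKO replicate 2. None of the 20 values passed after adjustment, and none could pass unless most of them reached the smallest p. In males Clec4g had the largest difference, 0.82 (exact permutation p = 0.0571, adjusted p = 0.286), which was 0.31 without CRE- replicate 3.

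**Figure D3:**
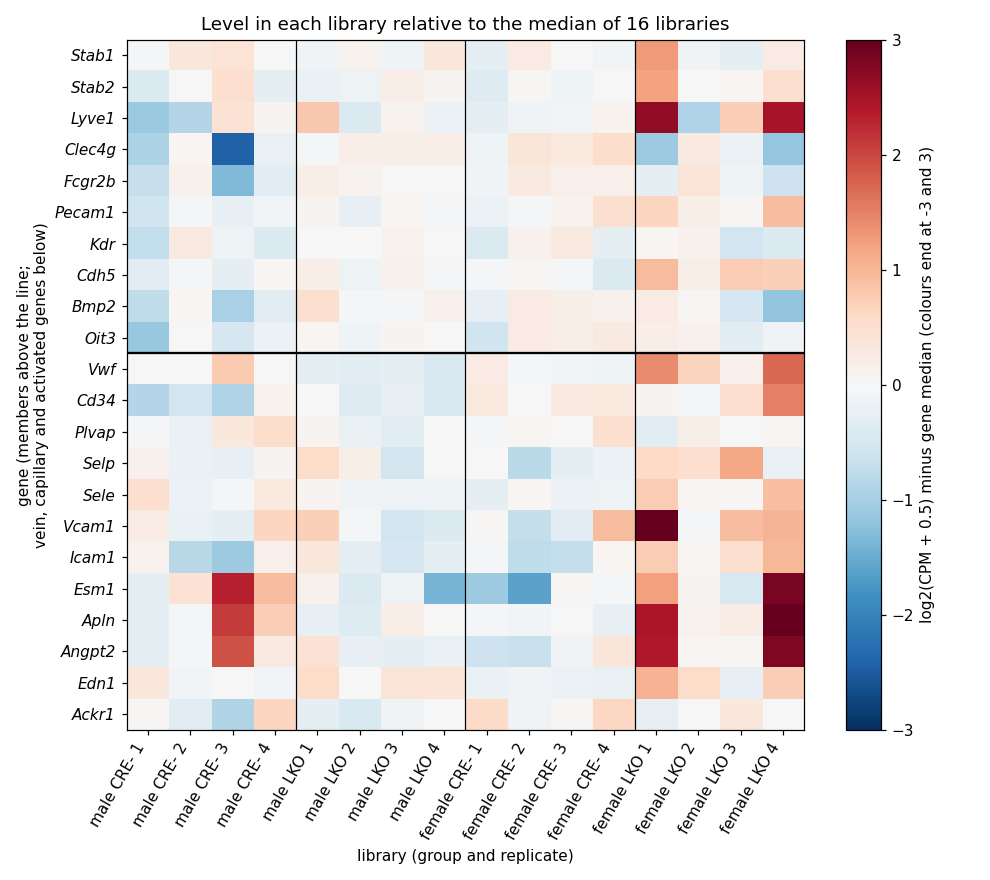
Colour gives log2(CPM + 0.5) minus the median of the gene over 16 libraries, for the 10 members and 12 vein, capillary and activated endothelial genes (rows) in each library (columns), with colours ending at -3 and 3. Male CRE- replicate 3 and female LKO replicates 1 and 4 combine low Clec4g with high Esm1, Apln and Angpt2. In male CRE- replicate 3 Cd34, Icam1 and Ackr1 are at their lowest of the 16 libraries.

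Several genes of veins, other capillaries and activated endothelium were high in the same libraries. Of these 12 genes, 2 were called higher in female LKO and none lower. The female median log2 fold change was 1.15, with 10 of 12 positive, beside 0.04 over all tested genes. In males none was called, and the median was -0.26, with 4 of 12 positive. Vwf, the von Willebrand factor of larger vessels, was 15.3, 12.1, 11.9 and 11.7 CPM in female CRE- and 35.0, 20.5, 14.2 and 43.1 CPM in female LKO. Replicates 1 and 4 were highest, and replicate 3 was within the CRE- range (log2 fold change 1.15 ± 0.28 SE, adjusted p = 0.0358). In males Vwf was -0.61 (adjusted p = 0.512), with all LKO livers below the CRE- livers. Apln, the peptide apelin, was 0.133, 0.117, 0.144 and 0.0535 CPM in female CRE- and 3.07, 0.199, 0.256 and 12.9 CPM in female LKO. Its log2 fold change of 5.15 (adjusted p = 0.048) was 1.03 with female LKO replicates 1 and 4 and male CRE- replicate 3 left out (adjusted p = 0.731). Of these, female LKO replicate 4 was picked from its endothelial genes. Apln was also high in male CRE- replicate 3, at 2.29 CPM, as were Esm1 at 26.9 CPM and Angpt2 at 6.24 CPM. Other genes of this list went the other way there. Cd34 (1.72 CPM), Icam1 (12.7 CPM) and Ackr1 (0.702 CPM) were at their lowest of the 16 livers in that library. Gcgr in male CRE- replicate 3, at 127 CPM, lay within the male LKO range, and the reason was not tested. Vcam1, the gene of this list with the highest mean, was 541 CPM in female LKO replicate 1 and at most 56.2 CPM elsewhere. Its rank rested on that library, since Plvap had the higher median, 60.8 CPM against 27.4 CPM for Vcam1.

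Other sinusoidal endothelial genes did not pass the test. Of 10, none was called in either sex, and the median log2 fold change was 0.24 in males and -0.12 in females. Mrc1, the mannose receptor with the highest mean of them, had a female log2 fold change of 0.82 (adjusted p = 0.177), and Gpr182 -0.16 (adjusted p = 0.792). Mrc1 was 45.3, 60.9, 59.2 and 68.8 CPM in female CRE- and 212, 52.8, 88.8 and 58.8 CPM in female LKO. Its value and its rank thus rested largely on LKO replicate 1. By median, Dnase1l3 (63.1 CPM) and Ehd3 (62.0 CPM) were above Mrc1 (54.8 CPM). Of 22 pan-endothelial genes, S1pr1, a sphingosine 1-phosphate receptor, was lower in female LKO (log2 fold change -0.86 ± 0.21 SE, adjusted p = 0.0312), and none was called in males. The median of this list was 0.22 in males and 0.06 in females. Eng, its most abundant gene, had 0.10 and -0.16, and Tek 0.35 and -0.53.

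None of 6 pericentral genes was called, with medians of 0.79 in males and -0.27 in females. Wnt2, which signals to pericentral hepatocytes, was 0.104 CPM in male CRE- replicate 3 and 0.174 CPM in female LKO replicate 4, below every other library. Its log2 fold change was 1.37 in males, where the groups did not overlap (adjusted p = 0.582), and -0.81 in females. Rspo3, the most abundant, had log2 fold changes of 0.26 and -0.21. Of 5 periportal genes, Ltbp4 was lower in female LKO (log2 fold change -0.63 ± 0.16 SE, adjusted p = 0.0418), and Efnb2 was not called (-0.40 in males and -0.29 in females). Of 7 VEGF and angiopoietin ligands 6 were tested and none was called. The median of this list was 0.39 in males, with 4 of 6 positive, and 0.006 in females, with 3 of 6 positive. Vegfa had log2 fold changes of -0.28 in males and -0.15 in females, and Angptl4 1.10 and 0.91.

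Of 16 genes from BMP signalling to hepcidin, Hamp2 was lower in female LKO. It was 312, 638, 778 and 1277 CPM in female CRE- and 2.49, 93.0, 31.4 and 0.347 CPM in female LKO (log2 fold change -4.56 ± 1.14 SE, adjusted p = 0.0368). Hamp, which encodes hepcidin, was 890, 955, 1125 and 1306 CPM in female CRE- and 432, 101.02, 658 and 3.24 CPM in female LKO. All 4 LKO livers were below the CRE- livers, but Hamp was not called (log2 fold change -1.84, adjusted p = 0.242), and neither was Bmp6, the other main endothelial BMP ligand (0.05, adjusted p = 0.961).

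The calls on these other genes were lost when some mice were left out, in fits that called fewer genes in all. Leaving out female LKO replicate 1 ended the female calls of Vwf, Apln, S1pr1, Ltbp4, Hamp2 and Gcgr, with log2 fold changes whose extremes over the left-out mice were 0.86 and 1.37 for Vwf, 3.33 and 5.56 for Apln and -0.93 and -0.70 for S1pr1. Leaving out female CRE- replicate 2, 3 or 4 ended all of these as well, and the same holds for the calls of Adgre1, Trem2, Retnlg, Ngp and Pf4 given next. Over the mice left out the extremes were -0.73 and -0.54 for Ltbp4, -6.03 and -4.15 for Hamp2, -1.11 and -0.69 for Gcgr, 2.34 and 2.98 for Trem2, 2.04 and 3.19 for Retnlg and 2.56 and 3.35 for Pf4. All thus kept their direction, and the larger moves were Adgre1, from 2.15 to 1.21 without LKO replicate 1, and Ngp, from 4.68 to 2.79 without LKO replicate 4, beside that of Apln. DESeq2 called each of them. With library totals alone Gcgr (-0.67, adjusted p = 0.0852), S1pr1 (-0.60, adjusted p = 0.0588) and Ltbp4 (-0.36, adjusted p = 0.143) were not called, and the other 8 were.

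Markers of other liver cells also differed between libraries, not always the same ones. All 10 Kupffer cell markers had positive female log2 fold changes, with a median of 1.34, and Adgre1 was called (2.15, adjusted p = 0.0451), while Clec4f was not (1.04, adjusted p = 0.16). Their summed level was 966, 716, 796 and 1623 CPM in female CRE- and 4410, 1223, 2878 and 1742 CPM in female LKO, led by Cd5l. Replicate 1, which had the highest Stab1, Stab2 and Lyve1, had the highest sum, followed by replicate 3, and replicate 4 was close to the highest CRE- liver. In males the sum was 1097, 583, 311 and 1655 CPM in CRE- and 1481, 811, 899 and 829 CPM in LKO. Of 7 recruited macrophage markers Trem2 was called (2.701, adjusted p = 0.0249) and Ccr2 was not (1.85, adjusted p = 0.0546), and the sum, led by Lyz2, was 229, 135, 164 and 271 CPM in female CRE- and 403, 349, 580 and 513 CPM in female LKO, highest in replicate 3. Male CRE- replicate 3 had the lowest Kupffer cell sum of the 16 livers.

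Of 7 neutrophil markers Retnlg and Ngp were called higher in female LKO (2.86, adjusted p = 0.0331, and 4.68, adjusted p = 0.0483), and S100a8 was not (3.58, adjusted p = 0.0509). Their sum, led by S100a9, was 38.1, 20.7, 16.95 and 19.004 CPM in female CRE- and 125, 45.2, 71.3 and 616 CPM in female LKO. Of 5 platelet markers Pf4 was called (2.99, adjusted p = 0.0412), and the sum was 8.07, 4.65, 5.29 and 9.49 CPM in female CRE- and 42.4, 8.18, 19.5 and 29.0 CPM in female LKO. Of the female LKO livers, replicates 1 and 4 were the highest in both lists.

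In males no gene of these lists or of the recruited macrophage list was called. The recruited macrophage markers had a male median of -0.50, with 2 of 7 positive, beside 1.81 in females. Trem2 was positive in males too (0.57), but this rested on LKO replicate 1. It was 3.08, 1.51, 1.98 and 4.18 CPM in male CRE- and 10.2, 2.08, 2.01 and 1.62 CPM in male LKO. Lyz2 had a male value of -0.11. The sum of the list was 333, 116, 80.5 and 477 CPM in male CRE- and 405, 182, 178 and 143 CPM in male LKO, with overlapping groups. The neutrophil markers had a median log2 fold change of -2.23, with 0 of 7 positive, and Ngp was -5.55 (adjusted p = 0.108). Their sum was 91.7, 21.1, 17.2 and 183 CPM in male CRE- and 27.3, 16.9, 13.1 and 12.6 CPM in male LKO, so that CRE- replicates 1 and 4 were high. The platelet markers had a median of -1.64, with 1 of 5 positive, Pf4 (0.30). Pf4 was 3.08, 2.21, 0.83 and 4.63 CPM in male CRE- and 8.85, 1.21, 1.29 and 1.94 CPM in male LKO. Its positive value thus rested on LKO replicate 1. The platelet sum was 13.7, 8.76, 8.11 and 21.4 CPM in male CRE- and 13.3, 6.83, 7.18 and 6.86 CPM in male LKO. For the sex difference edgeR called no gene at all, whereas DESeq2 called all 7 neutrophil markers and the platelet markers Ppbp and Gp1bb.

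No gene was called for LKO against CRE- in the lists of 10 stellate cell and fibroblast, 7 B and plasma cell, 6 T and NK cell, 5 cholangiocyte, 8 hepatocyte or 5 erythroid markers. Krt19, a cholangiocyte keratin, was higher in female than in male CRE- (1.66, adjusted p = 0.030), but not when any 1 of the 8 CRE- mice was left out (adjusted p from 0.0562 to 0.0989). Alb, the most abundant hepatocyte marker, had log2 fold changes of -0.33 in males and -0.69 in females. All 8 hepatocyte markers had negative female values, with a median of -0.73, beside -0.08 in males with 3 of 8 positive. Their sum was 111910, 109130, 114330 and 130670 CPM in female CRE- and 49015, 89146, 85705 and 66701 CPM in female LKO, and these groups did not overlap.

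All 5 erythroid markers were negative in males, with a median of -1.27, and positive in females, with a median of 0.57. Hbb-bs, the most abundant, had -1.08 and 0.58, and Hba-a1 -1.28 and 0.57. The sum was 768, 626, 558 and 1039 CPM in male CRE- and 196, 393, 306 and 492 CPM in male LKO, which did not overlap. In females it was 542, 483, 389 and 787 CPM in CRE- and 407, 869, 304 and 1650 CPM in LKO, where replicate 4 was the highest of the 16 livers.

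The stellate cell and fibroblast sum was 462, 458, 729 and 581 CPM in male CRE- and 633, 467, 407 and 433 CPM in male LKO. In females it was 485, 624, 623 and 595 CPM in CRE- and 531, 540, 574 and 319 CPM in LKO. Male CRE- replicate 3 was thus the highest of the 16 livers and female LKO replicate 4 the lowest. The median log2 fold change of this list was -0.28 in males, with 3 of 10 positive, and -0.04 in females, with 4 of 10 positive. Dcn, the most abundant, had 0.07 in males and -0.29 in females, and Lrat -0.57 and -0.58. Col1a1 went the other way in females, at -0.66 and 0.96. In male CRE- replicate 3 Lrat stood at 65.96 CPM and Reln at 214 CPM, the latter beside at most 79.1 CPM elsewhere.

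The sum of the B and plasma markers, led by Jchain, was 68.3, 32.9, 56.8 and 46.9 CPM in female CRE- and 101.12, 73.9, 142 and 26.8 CPM in female LKO, with replicate 3 highest and replicate 4 lowest of the 16 livers. Jchain was 23.1, 15.3, 31.4 and 23.9 CPM in female CRE- and 19.4, 41.5, 84.7 and 12.4 CPM in female LKO. Its female difference thus rested largely on LKO replicate 3. Female log2 fold changes were 0.76 for Jchain and 0.35 for Cd79a, which was also highest in that library. They were 0.28 for Nkg7 and 0.003 for Cd3e among T and NK cell markers, and 0.50 for Spp1 and 0.24 for Epcam among cholangiocyte markers. No marker of these lists was at 0 in all libraries. The part of these other cells in the endothelial results was not tested.

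Within groups, the 10 genes did not vary as a single unit. After group means were subtracted, the correlation of a member with the mean of the other 9 over 16 livers was 0.80 for Oit3 and 0.58 for Pecam1, but 0.06 for Lyve1 and -0.12 for Clec4g, as a description. The genes outside all lists most like the mean of the 10 members were Tmem132e (Pearson r = 0.89), Saraf (0.86), Cnr2 (0.84), Spg21 (0.84), Actg2 (0.84), Cct5 (0.83), Celf4 (0.82), Zdhhc7 (0.82), Rbbp7 (0.81) and Brd7 (0.81), over the same 16 livers and picked as the highest of all tested genes.

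RefSeq promoter windows of GRCm38.p6 matched 5 members, Stab1, Stab2, Clec4g, Fcgr2b and Kdr. The motif GGAA, read on both strands, occurred in all 5 and in 96% of 32851 promoter windows. TATAAA occurred in that of Clec4g and in 13.6% of all windows. AGATAA and TGTTTAC occurred in none of the 5, and in 11.2% and 3.65% of all windows.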

How the data were processed

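Per the labels and the file headers, reads were aligned with STAR 2.7.1a to GRCm39, and the authors deposited counts per gene from featureCounts (Subread 2.0.6) by strand, with single reads and not pairs counted. No member shared exons with another gene on its own strand. Gene lengths in the same table, listed as other values in the deposited file, were used for TPM.

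Here edgeR 4.0.16 (R 4.3.3) was used with filterByExpr at a minimum count of 10, TMM scaling and a quasi-likelihood fit of the 4 groups together. P-values were adjusted by Benjamini-Hochberg over all 16742 genes tested, and genes under 0.05 were called. Totals of 33268424 to 56488920 counts set the precision of low genes. Alternatives were DESeq2 1.42.0, limma 3.58.1 (voom with quality weights), other scalings and filters, each sex alone, the replicate block and leaving out mice. Log2 CPM used a prior count of 2.

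Scaling by library totals alone, without TMM factors, was added after TPM and CPM were seen to differ in direction.

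The genes named were the 10 members, and from each other list up to 4 called genes, the most abundant by mean CPM and the first listed. Esm1, Angpt2, Cd34, Icam1, Ackr1, Vcam1, Plvap, Dnase1l3, Ehd3, Angptl4, Reln, Col1a1, Ppbp, Gp1bb and the sums by library were described after their values were seen. The members and lists were chosen with earlier results of these data known.

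Leaving out the 2 libraries farthest from their group was added after the data were seen. A further alternative also left out female LKO replicate 4. That library was picked from its endothelial genes and ranked only 6 of 16 by distance to its group, so this alternative is a selection on the outcome. It shows how far values rest on that library and is no independent test.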

Additional observations from a re-analysis of the deposited data

Results flagged for a closer look

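In groups of 4 libraries, a value was looked at again when its gap to the nearest library was over the 95% critical value of Dixon for the share of the range of the group. Chance gives about 1 in 20 such groups, and 88 groups were examined, so several are due to chance alone. Among the members these were Clec4g in male LKO replicate 1 at 58.5 CPM and Oit3 in female CRE- replicate 1 at 16.4 CPM, each below the rest of its group.

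The targeted gene Gcgr was low in male CRE- replicate 3, at 127 CPM. S1pr1 was high in male CRE- replicate 2 at 51.7 CPM and low in female LKO replicate 3 at 27.8 CPM. Vwf was high in male CRE- replicate 3 at 22.1 CPM and in female CRE- replicate 1 at 15.3 CPM. Male LKO replicate 1 was above its group in Adgre1 at 62.3 CPM, Trem2 at 10.2 CPM and Pf4 at 8.85 CPM. Ngp was high in female LKO replicate 4 at 96.1 CPM.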

How the results depend on the processing

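Scaling by library totals alone changed the female results most among the scalings. It called 4 members in females, adding Stab2, Lyve1 and Pecam1 to Cdh5, and 1212 genes in all, with a members' median of 0.435 and a median shift of 0.272 over all genes. Fcgr2b (0.0438), Kdr (0.145) and Oit3 (0.193) turned positive in females, and Stab2 (0.0711) in males. Between CRE- groups Lyve1 (-0.00656) and Cdh5 (-0.0957) turned negative. The TMM factors set this shift by construction, and which scaling fits these livers better was not tested.

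In males, in the sex difference and between the control groups, 0 members were called under every alternative run. In females DESeq2 called 2 members, adding Lyve1, beside 1809 of all 16742 genes tested. The count of members was 0 with each sex fitted alone and 0 at an adjusted p under 0.01, beside 119 and 51 genes. It was also 0 with female LKO replicate 4 and the 2 farthest libraries left out, beside 141 genes. With single mice left out it was 0 to 2, beside 87 to 1310 genes. Cdh5 kept its direction in females in all of these.

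Counts of genes called moved more. In males there were 339 with DESeq2, 148 with limma-voom, 22 at an adjusted p under 0.01 and 26 to 49 with single mice left out. In females there were 1809, 1976 and 51, then 119 with each sex alone and 87 to 1310 with single mice left out. In the sex difference there were 371 with DESeq2, 29 with limma-voom, 12 with no filter on low counts and 0 to 14 with single mice left out. Between the CRE- groups there were 506, 329 and 54, then 78 with at least 10 counts in every library and 68 to 149 with single mice left out. Without the 2 farthest libraries 361 genes were called in females. With female LKO replicate 4 left out as well there were 123 in males, 141 in females and 5 in the sex difference. The cause of these changes was not tested, although fewer libraries were fitted where mice were left out.

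The replicate block called 63 genes in males, 1244 in females and 161 between CRE- groups, and changed no member's call. Same-numbered libraries did not deviate together in all pairs (correlations from -0.013 to 0.173), but 9 of 16 libraries correlated best with their own number, where an even spread over the 4 numbers would give 4. The labels do not state a pairing, and whether the numbers mark one was not settled. The numbers used are those of the sample titles, and the library numbers in the file headers differ from them for some libraries. Neither the block nor this check was run on the header numbers.

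The members' median log2 fold change in females was -0.15 with limma-voom, -0.068 without the 2 farthest libraries, -0.045 without female LKO replicate 4 as well, and -0.068 to 0.26 with single mice left out. Signs turned only for members not called in that comparison. For Stab2 in males the value was 0.0137 with upper-quartile scaling, 0.19 with limma-voom, 0.00166 with the replicate block, 0.22 without the 2 farthest libraries, 0.22 without those and female LKO replicate 4, and -0.13 to 0.21 with single mice left out. With limma-voom Stab1 was 0.023 in males, -0.10 in females and -0.12 in the sex difference, Pecam1 -0.00195 in the sex difference and Stab2 0.11 between CRE- groups. Without the 2 farthest libraries, Stab2 was 0.11 and Cdh5 -0.0162 between CRE- groups, and 0.11 and -0.0160 without female LKO replicate 4 too. In that last alternative Stab1 was -0.15 and Fcgr2b 0.059 in females, and the sex difference was -0.10 for Stab1, -0.046 for Stab2, -0.47 for Lyve1 and -0.17 for Pecam1. With single mice left out, Kdr was -0.24 to 0.00399 and Oit3 -0.27 to 0.00598 in females. Between CRE- groups Stab2 was -0.23 to 0.11, Lyve1 -0.088 to 0.47 and Cdh5 -0.0177 to 0.12.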
